A study of Rattus norvegicus with 9 samples.

Results

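Glutathione peroxidases, peroxiredoxins and the thioredoxin pair remove hydrogen peroxide and lipid peroxides from cells, and 10 of their genes (Gpx1, Gpx2, Gpx3, Gpx4, Prdx1, Prdx2, Prdx6, Txn1, Txnrd1 and Srxn1) are described here in primary rat heart cells. They were chosen by gene symbol from the deposited count and RPKM tables. Of the 10, 9 had a row among the 28935 genes of the count table, and 8 passed the filter on low counts that left 14151 genes to test, Gpx2 only through its counts in the Nfe2l1 group. Srxn1 was not analysed here, and Gpx4 had too few counts to test.

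The cells were neonatal rat ventricular myocytes, a primary culture from the hearts of Sprague Dawley pups 1 to 2 days old. One group received an adenovirus for Nfya, a subunit of the CCAAT-binding factor NF-Y. Another received an adenovirus for Nfe2l1, a CNC-bZIP factor that can bind antioxidant response elements, and the control group an adenovirus for green fluorescent protein (GFP). All 9 cultures, 3 libraries per virus, had the same schedule: 48 h in medium with 3% serum, then 8 µL of virus in 1 mL of medium without serum, and 48 h to collection. The labels give neither the promoter that drove each virus nor whether the 3 libraries of a virus came from separate preparations. The p-values therefore cover only counting error and the spread among the libraries at hand, and part or all of that spread may be technical.

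Glutathione peroxidases reduce peroxides with electrons from glutathione, which glutathione reductase restores. Peroxiredoxins reduce peroxides with a reactive cysteine that thioredoxin (or, for Prdx6, glutathione) restores, and thioredoxin reductase recharges thioredoxin from NADPH. Gpx1 to Gpx4 and Txnrd1 carry selenocysteine, so their synthesis depends on selenium and on a dedicated insertion machinery. Gpx2, Prdx1, Txnrd1 and Srxn1 are known as targets of the related factor Nrf2 in other cell types.

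Library totals were 6482108 to 6660358 counts in the Nfya-labelled libraries, 6479766 to 7310774 in the Nfe2l1-labelled and 5712123 to 6782414 in the GFP libraries. The targeted genes did not clearly follow the labels. Nfya averaged 89.0 CPM (counts scaled to library size) in the Nfya-labelled, 92.3 in the Nfe2l1-labelled and 80.4 in the GFP libraries, with a log2 fold change over GFP of 0.15 ± 0.04 (adjusted p = 0.00926) in the first and 0.20 (adjusted p = 2.06e-04) in the second. Nfe2l1 averaged 222.7, 239.4 and 240.7 CPM in the same order, with a log2 fold change of -0.01 ± 0.03 (SE) in Nfe2l1-labelled over GFP libraries (adjusted p = 0.856). Whether these counts include transcripts of the viruses is not given in the sources used here, and every direction below rests on the labels. Cardiomyocyte markers summed to 3403 to 3458 CPM in Nfya-labelled, 3050 to 3365 in Nfe2l1-labelled and 3164 to 3508 in GFP libraries, with all 10 of 10 detected. Fibroblast marker sums were higher in both virus groups, at 2167 to 2188, 1829 to 1979 and 1262 to 1344 CPM. Of the 10, 8 passed the test as higher in each, and 1, Col1a2, as lower in Nfya over GFP. Endothelial markers summed to 451.1 to 469.2 CPM in Nfya-labelled, 491.1 to 526.9 in Nfe2l1-labelled and 332.6 to 347.6 in GFP libraries. Of the 9 tested, 6 were higher and 1 lower in Nfya over GFP, and 7 higher and 1 lower in Nfe2l1 over GFP. The lower gene was Kdr in both, at 77.0, 90.0 and 163.1 CPM. Smooth muscle and pericyte markers ran from 1367 to 1380, from 1036 to 1091 and from 1273 to 1323 CPM in the same order, and epicardial markers from 183.2 to 209.4, from 201.0 to 221.7 and from 157.8 to 168.4 CPM. Macrophage and leukocyte markers summed to 83.5 to 97.3, 95.5 to 108.8 and 60.0 to 76.0 CPM, and erythroid markers to at most 6.53 CPM. The part of these markers in the results below was not tested, and in such mixed cultures fewer cells of a type and less RNA per cell cannot be told apart.

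By RPKM (reads scaled to gene length and library size, as deposited by the authors), Txn1 was the most abundant of the 8 genes in every group. Its mean was 120.0 RPKM in Nfya-labelled, 129.7 in Nfe2l1-labelled and 127.2 in GFP libraries. Prdx1 averaged 101.4, 109.2 and 97.1 RPKM, and Prdx2 99.5, 95.6 and 103.6 RPKM. Txnrd1, Gpx3 and Prdx6 formed the middle of the order, between 69.0 and 96.8 RPKM, and Gpx1 followed at 60.8, 55.0 and 58.9 RPKM. Gpx2 was last in every group, at 0.291, 15.4 and 1.02 RPKM. Prdx1 and Prdx2 exchanged places and their libraries overlapped in every group, as did those of Txnrd1 with Gpx3 in the Nfya- and Nfe2l1-labelled libraries and of Prdx1 with Txnrd1 in GFP. The libraries of all other neighbours in the order did not overlap.

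**Figure D1:**
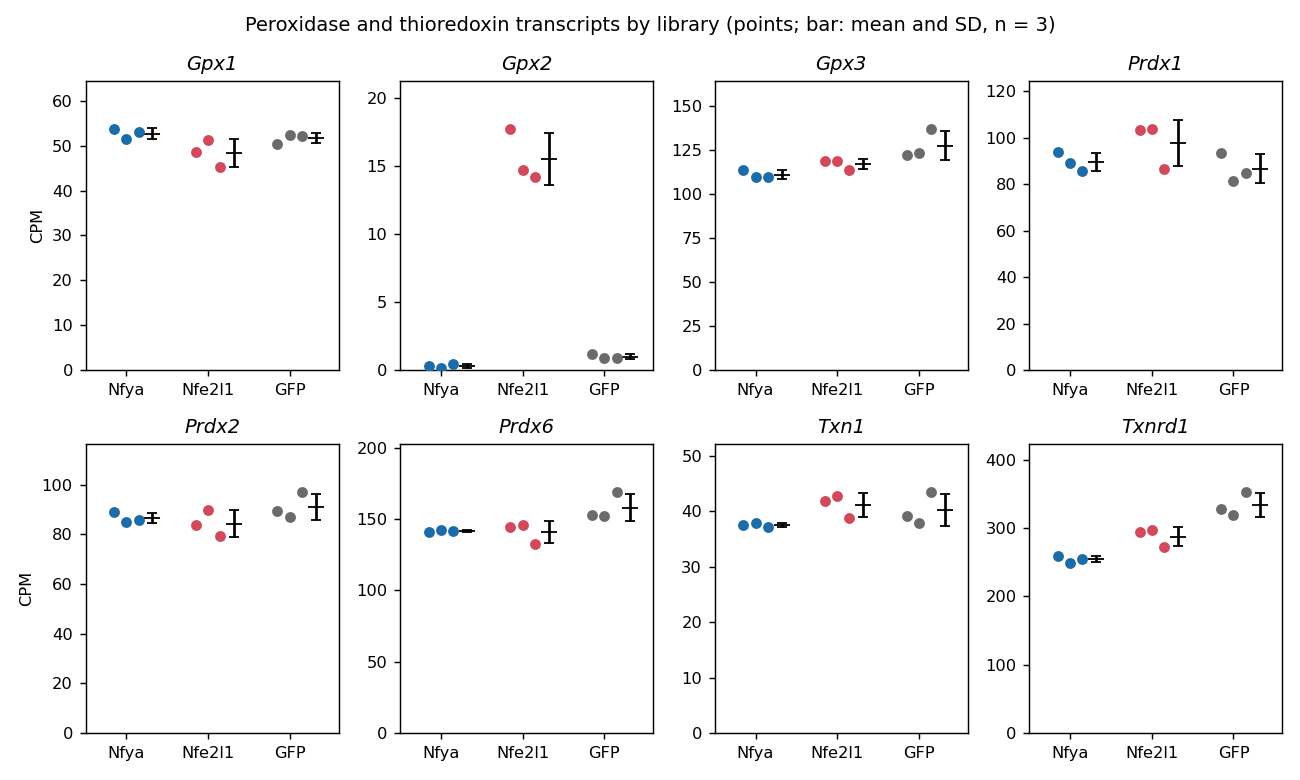
CPM (vertical axis, starting at 0 with its own range in each panel) of the 8 tested genes, for Nfya, Nfe2l1 and GFP libraries from left to right; points are libraries, and bars give the mean and SD of 3. Gpx2 stands out with 14.2 to 17.7 CPM in Nfe2l1-labelled libraries, against 0.885 to 1.23 CPM in GFP libraries.

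Of the 3 genes printed next, Gpx2, Prdx1 and Txnrd1, each has an antioxidant response element core in the 250 bases before an annotated start, and each passed the test in at least 1 comparison. The sequences are RefSeq's, on build GRCr8, read 5′ to 3′ on the strand of the gene. Gpx2 lies at chr6:101230034-101230283 (minus strand), Prdx1 at chr5:135383656-135383905 (plus strand), and the second annotated start of Txnrd1 at chr7:22755905-22756154 (minus strand). The longer run of capitals in each is a match to TGACNNNGC, here read on the other strand as GCNNNGTCA, and the shorter run in Gpx2 and Txnrd1 is a CCAAT box on either strand.
Gpx2: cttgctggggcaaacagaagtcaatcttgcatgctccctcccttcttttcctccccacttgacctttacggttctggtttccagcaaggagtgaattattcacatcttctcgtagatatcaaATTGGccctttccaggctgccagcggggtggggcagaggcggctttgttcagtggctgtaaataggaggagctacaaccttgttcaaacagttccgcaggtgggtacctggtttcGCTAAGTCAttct
Prdx1: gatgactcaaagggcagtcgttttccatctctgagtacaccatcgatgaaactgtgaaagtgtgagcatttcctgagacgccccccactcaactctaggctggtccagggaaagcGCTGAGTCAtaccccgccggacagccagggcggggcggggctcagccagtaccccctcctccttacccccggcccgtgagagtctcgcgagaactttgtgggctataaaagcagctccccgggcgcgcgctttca
Txnrd1: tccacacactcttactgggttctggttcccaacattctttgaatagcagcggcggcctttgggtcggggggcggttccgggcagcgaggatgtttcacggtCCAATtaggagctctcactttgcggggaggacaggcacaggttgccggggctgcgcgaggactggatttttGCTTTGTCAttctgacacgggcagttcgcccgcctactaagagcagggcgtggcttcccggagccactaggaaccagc
The core began 13 bases before the start in Gpx2, 135 in Prdx1 and 78 in Txnrd1, and the CCAAT box 128 bases before the start in Gpx2 and 149 in Txnrd1. The table held 12 start sites for 9 of the 10 genes, and Prdx6 had no entry. The core was present at 3 of the 12 start sites, against 10.1% of 33469 rat promoters of the same length searched on both strands. A CCAAT box was present at 4 of the 12, in Gpx2, Txnrd1 and 2 starts of Gpx4, against 34.0% of those promoters. A match describes the letters only, and no binding was measured.

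Among the glutathione peroxidases, Gpx2, the gastrointestinal form that is scarce in most other tissues, was far higher in Nfe2l1-labelled than in GFP libraries. In Nfya-labelled and GFP libraries it had few counts. Its counts were 2, 1 and 3 in the Nfya-labelled libraries, 114, 94 and 104 in the Nfe2l1-labelled and 8, 6 and 5 in the GFP libraries. The 3 groups did not overlap, with all Nfe2l1-labelled libraries at the top and all Nfya-labelled libraries at the bottom. In CPM the means were 0.302 ± 0.148, 15.5 ± 1.91 and 0.999 ± 0.196 (SD, n = 3 each).

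For Nfe2l1-labelled over GFP libraries the log2 fold change of Gpx2 was 3.93 ± 0.22 (SE, edgeR quasi-likelihood test, adjusted p = 5.45e-10), or 15.2-fold. The group sums, 312 against 19 counts, gave a ratio per library size of 15.4 with an exact 95% interval of 9.72 to 26.0. For Nfya-labelled over GFP libraries the log2 fold change was -1.67 ± 0.50 (adjusted p = 0.0128), from 6 against 19 counts. That ratio was 0.302 with an exact interval of 0.0987 to 0.787. Gpx2 could be tested here only because its Nfe2l1 counts carried it past the filter, and in the Nfya-labelled and GFP libraries alone it was filtered out and had no test. The value did not pass the test without Nfya replicate 2 (adjusted p = 0.0696) or without GFP replicate 1 (adjusted p = 0.0677). The direct comparison of Nfya-labelled with Nfe2l1-labelled libraries gave -5.59 ± 0.28 (adjusted p = 1.90e-10), from 6 against 312 counts, a ratio of 0.0196 with an exact interval of 0.00712 to 0.0430. These intervals cover counting error only. In the 7 libraries of like depth the values were -1.74 for Nfya over GFP, 3.92 for Nfe2l1 over GFP and -5.66 for Nfya over Nfe2l1. The authors' deposited table gives a log2 fold change of 3.93 and an FDR of 2.13e-53 for Gpx2 in Nfe2l1 over GFP.

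Gpx3, the secreted plasma enzyme, was slightly lower with both factors. It had 114, 110 and 110 CPM in Nfya-labelled, 119, 119 and 113 in Nfe2l1-labelled and 122, 124 and 137 CPM in GFP libraries. GFP replicate 3 was the highest of the 9, and neither virus group overlapped GFP. The log2 fold change was -0.19 ± 0.04 for Nfya over GFP (adjusted p = 0.00101), and this call held in all 23 alternative analyses. For Nfe2l1 over GFP it was -0.12 ± 0.04 (adjusted p = 0.0201). The Nfe2l1 call was lost in 7 of 23 alternatives. Among these, the value did not pass without Nfe2l1 replicate 1 (adjusted p = 0.0703), Nfe2l1 replicate 3 (-0.08, adjusted p = 0.162) or GFP replicate 3 (-0.07, adjusted p = 0.181). With both of the last-named libraries left out, which are the deepest and the shallowest, it was -0.05 (adjusted p = 0.451).

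Gpx1, the ubiquitous cytosolic and mitochondrial form, did not pass the test in any of the 3 comparisons with the main settings. It had 53.6, 51.4 and 52.9 CPM in Nfya-labelled, 48.5, 51.3 and 45.1 in Nfe2l1-labelled and 50.4, 52.3 and 52.2 CPM in GFP libraries. Its log2 fold change was 0.03 over GFP in the Nfya-labelled libraries, with a 95% interval of -0.07 to 0.13. In the Nfe2l1-labelled libraries it was -0.10, with an interval of -0.20 to 0.00. The SE of Gpx1 falls below counting error, so both intervals are too narrow. The Nfe2l1 value (adjusted p = 0.179) passed in 3 of 23 alternatives, with an adjusted p from 0.0420 to 0.700 over all of them, and was -0.04 in the 7 libraries of like depth (adjusted p = 0.682). The Nfya- and Nfe2l1-labelled libraries did not overlap, and their difference of 0.13 ± 0.05 (adjusted p = 0.0825) passed the test in 10 of 23 alternatives, but was 0.08 in the 7 libraries of like depth (adjusted p = 0.395). Gpx4, which reduces lipid hydroperoxides in membranes and guards against ferroptosis, had counts of 1, 1 and 1 in Nfya-labelled, 2, 0 and 1 in Nfe2l1-labelled and 1, 0 and 0 in GFP libraries. These sums of 3, 3 and 1 are at or under a floor of 3 counts, so no fold is given, and Gpx4 is a gene that most cells express, so the row is not read as its level.

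Among the peroxiredoxins, Prdx6, which also reduces phospholipid hydroperoxides, was lower with both factors by about the same amount. It had 141, 142 and 142 CPM in Nfya-labelled, 145, 146 and 132 in Nfe2l1-labelled and 153, 152 and 169 CPM in GFP libraries. All GFP libraries were above all others, and the Nfya-labelled libraries lay within the range of the Nfe2l1-labelled. The log2 fold change over GFP was -0.15 ± 0.04 for Nfya (adjusted p = 0.00765) and -0.16 ± 0.04 for Nfe2l1 (adjusted p = 0.00432). Between the factors it was 0.01, with a 95% interval of -0.08 to 0.10 (adjusted p = 0.875). With DESeq2 the Nfya value had an adjusted p of 0.0601. Without Nfe2l1 replicate 3 the Nfe2l1 value was -0.10 (adjusted p = 0.0692), and in the 7 libraries of like depth -0.07 (adjusted p = 0.199).

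Prdx1, an abundant cytosolic peroxiredoxin, passed the test as higher in Nfe2l1-labelled libraries. It had 93.6, 89.2 and 85.6 CPM in Nfya-labelled, 103, 104 and 86.3 in Nfe2l1-labelled and 93.5, 81.6 and 84.9 CPM in GFP libraries. Nfe2l1 replicate 3 lay inside the GFP range while the other two Nfe2l1-labelled libraries were the highest of the 9. The log2 fold change was 0.17 ± 0.07 for Nfe2l1 over GFP (adjusted p = 0.0415). The call was lost in 11 of 23 alternatives, with an adjusted p of 0.0736 by DESeq2 and 0.159 without Nfe2l1 replicate 2. The authors' deposited table gives an FDR of 0.0523. In the 7 libraries of like depth it was 0.24 (adjusted p = 0.00325), and Nfya-labelled over Nfe2l1-labelled libraries gave -0.21 (adjusted p = 0.00512), against -0.12 ± 0.07 (adjusted p = 0.139) in all 9. For Nfya over GFP the value was 0.05, with a 95% interval of -0.09 to 0.18.

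Prdx2, the peroxiredoxin best known from red cells, did not pass in any comparison with the main settings. It had 88.9, 85.0 and 85.8 CPM in Nfya-labelled, 83.6, 90.0 and 79.4 in Nfe2l1-labelled and 89.5, 86.9 and 97.1 CPM in GFP libraries, and the groups overlapped. The log2 fold change was -0.07 ± 0.05 for Nfya over GFP (adjusted p = 0.259) and -0.11 ± 0.05 for Nfe2l1 over GFP (adjusted p = 0.0684). The Nfe2l1 value ran from -0.16 to -0.02 over the 23 alternatives, with adjusted p from 0.0158 to 0.786, and passed as lower in 4. Its largest size was without Nfe2l1 replicate 2 and its smallest in the 7 libraries of like depth.

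Txnrd1, the cytosolic thioredoxin reductase, was lower with both factors, and lower with Nfya than with Nfe2l1. It had 259, 249 and 255 CPM in Nfya-labelled, 294, 297 and 272 in Nfe2l1-labelled and 328, 319 and 353 CPM in GFP libraries. The 3 groups did not overlap. Mean levels were 254 ± 4.65, 287 ± 13.5 and 333 ± 17.6 CPM (SD, n = 3 each).

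In Nfya-labelled libraries Txnrd1 fell by 23.5% relative to GFP (log2 fold change -0.39 ± 0.04, adjusted p = 7.79e-07). In Nfe2l1-labelled libraries it fell by 13.7% (-0.21 ± 0.04, adjusted p = 0.000238). Nfya-labelled over Nfe2l1-labelled libraries gave -0.17 ± 0.04 (adjusted p = 0.00209). All 3 calls held in the 23 alternatives, whose adjusted p ranged up to 2.84e-05, 0.00535 and 0.0320 in that order. In the 7 libraries of like depth the Nfe2l1 value was -0.13 (adjusted p = 4.60e-04). Both comparisons with GFP share the same control libraries.

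Txn1, the cytosolic thioredoxin that Txnrd1 recharges, did not pass in any comparison. It had 37.5, 37.8 and 37.1 CPM in Nfya-labelled, 41.8, 42.8 and 38.7 in Nfe2l1-labelled and 39.2, 38.0 and 43.5 CPM in GFP libraries. The Nfya-labelled libraries were the 3 lowest of the 9. The log2 fold change was -0.10 ± 0.06 for Nfya over GFP (adjusted p = 0.288), 0.03 ± 0.06 for Nfe2l1 over GFP (adjusted p = 0.710) and -0.13 ± 0.06 for Nfya over Nfe2l1 (adjusted p = 0.131). In the 7 libraries of like depth these were -0.04, 0.13 and -0.17, with adjusted p of 0.706, 0.203 and 0.0651. The SE of Txn1, like that of Gpx1, falls below counting error and is too small.

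**Figure D2:**
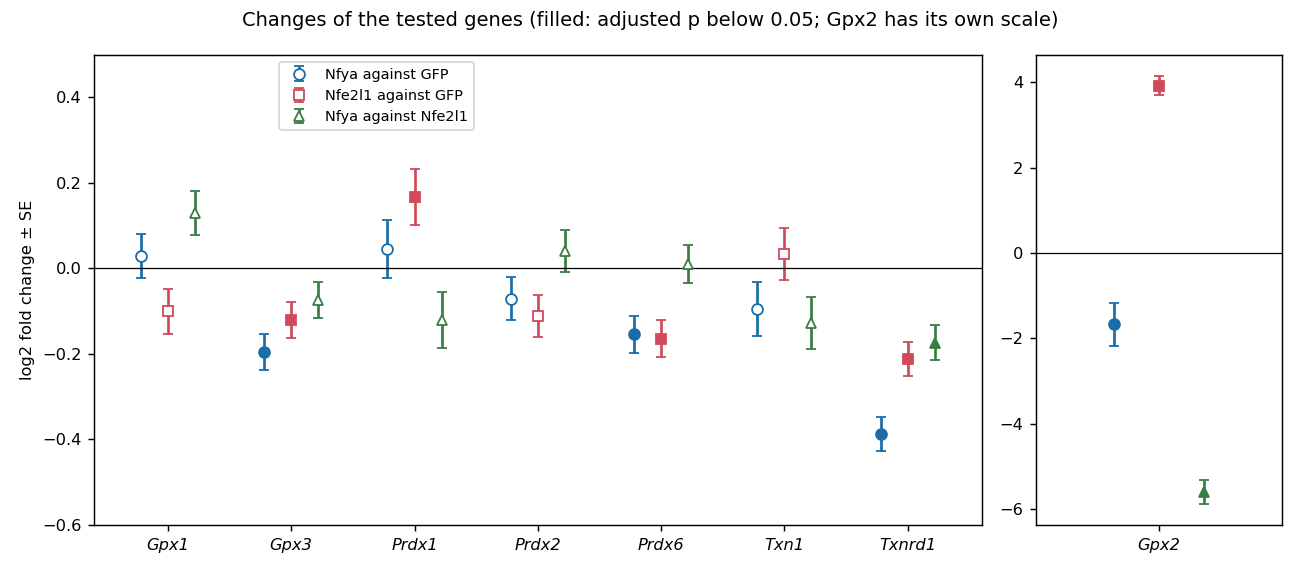
Log2 fold change with its SE (vertical axis) of the 8 tested genes in Nfya over GFP, Nfe2l1 over GFP and Nfya over Nfe2l1; Gpx2 has a panel with its own scale, and filled points have an adjusted p below 0.05. Outside Gpx2 all values lie between -0.39 (Txnrd1 in Nfya over GFP) and 0.17 (Prdx1 in Nfe2l1 over GFP).

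Counted over the 8 tested genes, none passed as higher and 4 as lower in Nfya over GFP, where 52.2% of all tested genes were called (24.3% higher and 27.9% lower). One of the 4 is Gpx2, tested only through its Nfe2l1 counts, and with only the Nfya-labelled and GFP libraries the count was 3. In Nfe2l1 over GFP 2 were higher and 3 lower, where 58.6% of all tested genes were called (28.9% higher and 29.7% lower). The higher genes were Gpx2 and Prdx1. In Nfya over Nfe2l1 none were higher and 2 lower, where 50.6% were called (25.2% higher and 25.4% lower). Groups did not overlap for 5, 4 and 4 of the 8 genes in the same order, against 61.6%, 64.0% and 60.0% of all tested genes. The shares called are near those of all genes in both comparisons with GFP. The median size of change, without its sign, was 0.12 for the 8 genes and 0.20 for all genes in Nfya over GFP. In Nfe2l1 over GFP it was 0.14 and 0.24. The genes were not matched for level, and all genes include those with few counts. The difference is therefore not read as a weaker response. At an unadjusted p below 0.05, 0 of the 8 were higher in Nfya over GFP and 1, Gpx1, in Nfya over Nfe2l1, and DESeq2 called 0 higher in both. Signed medians were -0.12 and -0.11 for the 8 genes, against -0.02 and -0.01 for all genes.

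Several of these genes were counted densely for their length. Txn1, with a gene length of 315 bases in the authors' table, averaged 0.821 counts per base, Prdx1 0.672, Prdx2 0.651, Txnrd1 0.554 and Gpx3 0.527. Among genes with a length in the authors' table, the highest mean over the 9 libraries was 1.45 counts per base, and 708 genes averaged above 0.5. Txn1 counts spanned 245 to 284 over the 9 libraries, with a variance within groups of 0.129 times the mean, although library totals differed by up to 1.28 times. GFP replicate 3, the shallowest library, had the highest GFP level of Gpx3, Prdx2, Prdx6, Txn1 and Txnrd1 in CPM. Nfe2l1 replicate 3, the deepest, had the lowest level of all 8 genes among the Nfe2l1-labelled libraries. Values for the 7 libraries left without these stand beside each gene above, but not for every comparison.

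**Figure D3:**
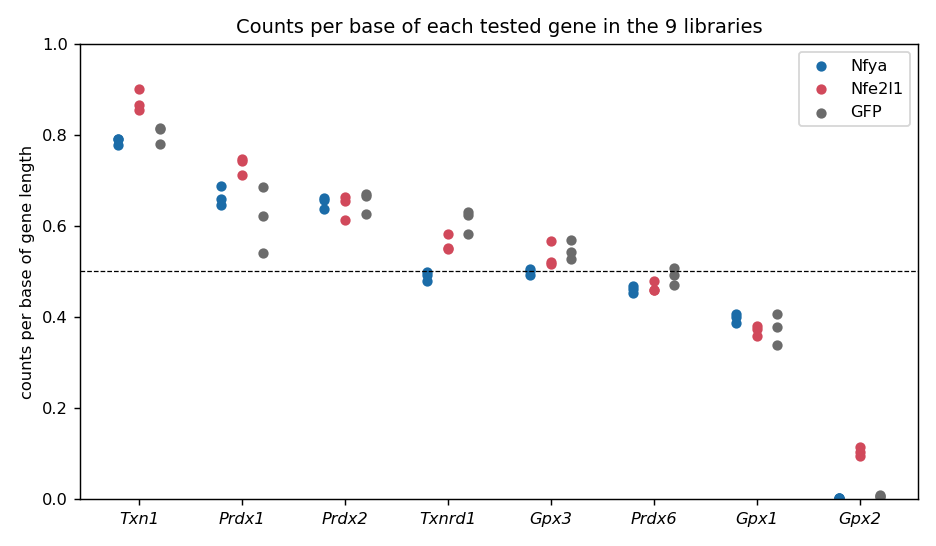
Counts per base of gene length (vertical axis, starting at 0) of the 8 tested genes in each of the 9 libraries, coloured by virus; the dashed line marks 0.5. Txn1, Prdx1, Prdx2, Txnrd1 and Gpx3 average above the line and Gpx2 is near 0.

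Other genes of the same chemistry are counted next by list. Each list has a median log2 fold change, to be read beside the medians over all tested genes of -0.02 in Nfya over GFP and -0.01 in Nfe2l1 over GFP and the shares called given above. Of the other glutathione peroxidases, Gpx7 and Gpx8, which reside in the endoplasmic reticulum, were tested and both passed as higher with each factor (medians 0.44 and 0.33). Gpx8 averaged 54.9 CPM in Nfya-labelled, 56.1 in Nfe2l1-labelled and 42.3 in GFP libraries, with log2 fold changes of 0.38 ± 0.05 and 0.41 ± 0.05 (adjusted p = 2.25e-05 and 6.55e-06). Gpx7 averaged 35.8, 29.7 and 25.1 CPM, with 0.51 ± 0.07 for Nfya (adjusted p = 3.04e-05) and 0.24 ± 0.08 for Nfe2l1 (adjusted p = 0.0153). The Nfe2l1 value of Gpx7 did not pass with DESeq2 (adjusted p = 0.118), without Nfe2l1 replicate 2 (0.140) or without GFP replicate 3 (0.0545).

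Of the other 3 peroxiredoxins, 1 rose with each factor, and not the same gene (medians 0.03 in both comparisons with GFP). Prdx4, the form of the endoplasmic reticulum, averaged 65.5 CPM in Nfya-labelled, 51.9 in Nfe2l1-labelled and 50.9 in GFP libraries. It rose in Nfya over GFP (0.37 ± 0.04, adjusted p = 3.99e-06), and Nfya over Nfe2l1 gave 0.34 ± 0.04 (adjusted p = 7.89e-06). Prdx5, found in mitochondria and peroxisomes, averaged 53.6, 75.4 and 52.5 CPM in the same order. It rose in Nfe2l1 over GFP (0.52 ± 0.05, adjusted p = 3.11e-07), and Nfya over Nfe2l1 gave -0.49 ± 0.05 (adjusted p = 7.47e-07). Prdx3, the mitochondrial form, did not pass in any comparison.

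Of 13 thioredoxin and glutaredoxin partners, 3 were higher and 2 lower in Nfya over GFP, and 4 higher and 2 lower in Nfe2l1 over GFP (medians 0.05 and 0.08). Txnrd2, the mitochondrial thioredoxin reductase, was higher with both factors while Txnrd1 was lower: it averaged 63.9 CPM in Nfya-labelled, 64.4 in Nfe2l1-labelled and 45.6 in GFP libraries (0.49 ± 0.05 and 0.50 ± 0.05 over GFP, adjusted p = 4.31e-07 and 2.28e-07). Glutathione reductase, Gsr, had opposite directions over the shared GFP libraries. It averaged 109.1 CPM in Nfya-labelled, 158.3 in Nfe2l1-labelled and 131.5 in GFP libraries, with -0.27 ± 0.04 for Nfya (adjusted p = 2.74e-05) and 0.27 ± 0.04 for Nfe2l1 (adjusted p = 9.84e-06). Nfya over Nfe2l1 gave -0.53 ± 0.04 for Gsr (adjusted p = 7.80e-09). Glrx, the cytosolic glutaredoxin that uses glutathione to reduce disulfides, averaged 17.9, 42.8 and 17.2 CPM and rose in Nfe2l1 over GFP (1.31 ± 0.06, adjusted p = 9.39e-11). The mitochondrial thioredoxin Txn2 did not pass in any comparison.

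**Figure D4:**
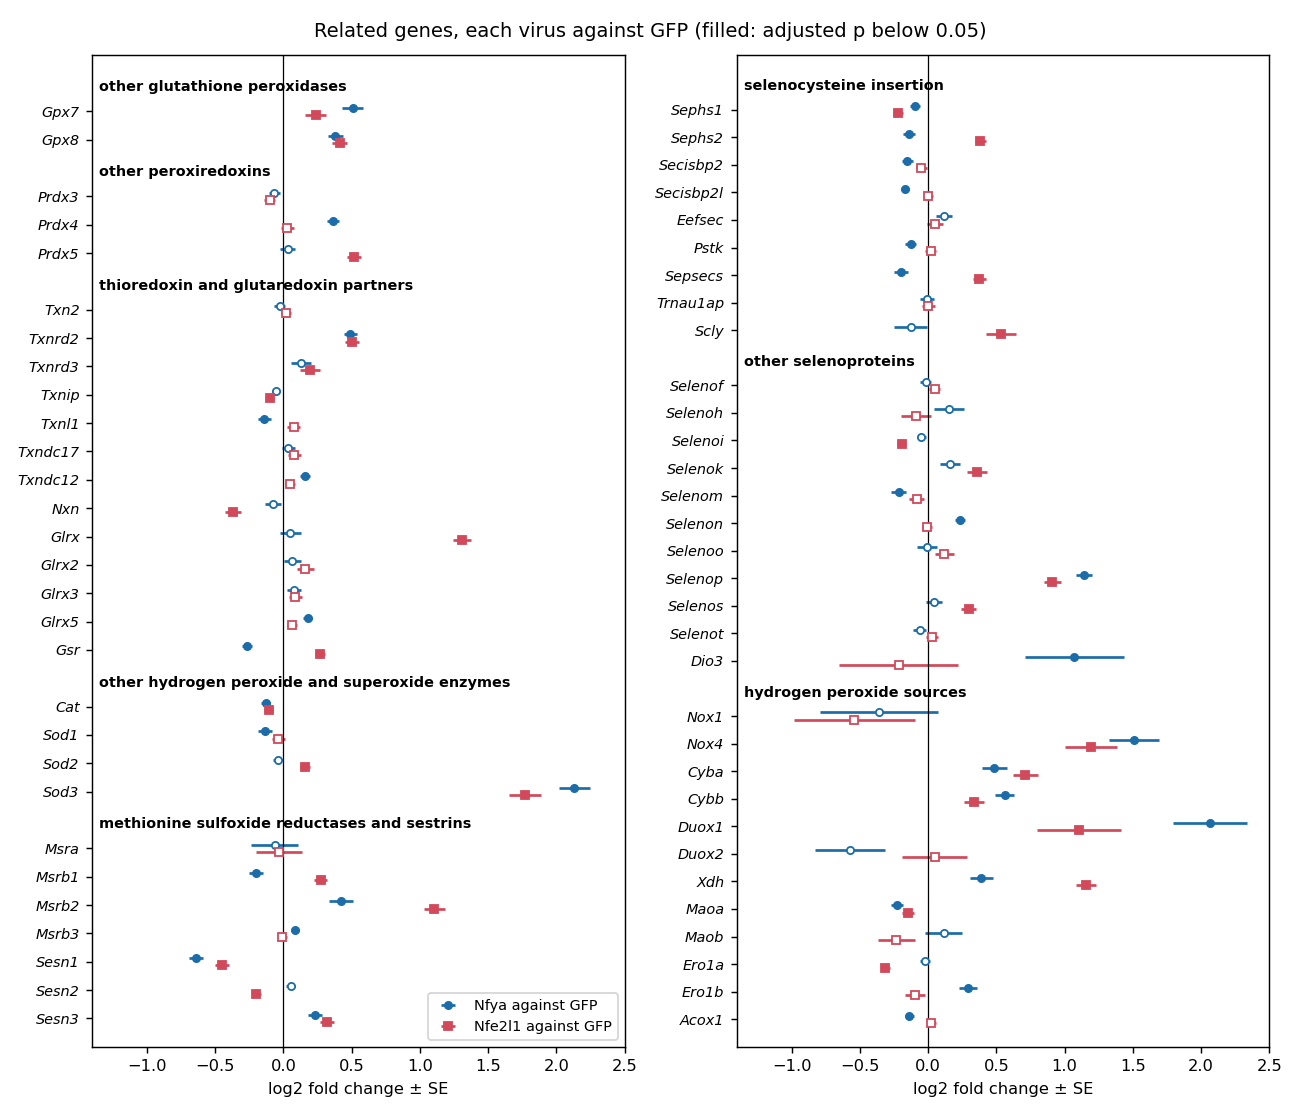
Log2 fold change with its SE (horizontal axis) of the related genes, grouped by list down both panels, with circles for Nfya over GFP and squares for Nfe2l1 over GFP; filled points have an adjusted p below 0.05. Sod3 lies farthest to the right, at 2.13 for Nfya and 1.77 for Nfe2l1.

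Of the 4 enzymes that remove superoxide or peroxide without glutathione or thioredoxin, Sod3, the extracellular superoxide dismutase, had the largest values. Over the 4, 1 was higher and 2 lower in Nfya over GFP, and 2 higher and 1 lower in Nfe2l1 over GFP (medians -0.09 and 0.06), and DESeq2 called 0 lower in both. Sod3 averaged 47.9 CPM in Nfya-labelled, 37.2 in Nfe2l1-labelled and 10.9 in GFP libraries (2.13 ± 0.11 and 1.77 ± 0.12 over GFP, adjusted p = 2.41e-10 and 2.78e-09). Catalase, Cat, averaged 212.3, 216.0 and 232.5 CPM (-0.13 ± 0.03 and -0.11 ± 0.03, adjusted p = 0.00507 and 0.0144), and neither call held with DESeq2 (adjusted p = 0.0535 and 0.0876). Sod1, the cytosolic form, averaged 64.6 CPM in Nfya-labelled and 71.3 in GFP libraries (-0.14 ± 0.05, adjusted p = 0.0310), a call lost in 18 of 23 alternatives. Sod2, the mitochondrial form, rose with Nfe2l1 (157.6 against 141.5 CPM, 0.16 ± 0.03, adjusted p = 0.00114). Among 7 methionine sulfoxide reductases and sestrins, 3 were higher and 2 lower with each factor (medians 0.05 and -0.01). Msrb2, which repairs oxidised methionine in mitochondria, averaged 23.4, 37.6 and 17.4 CPM (0.42 ± 0.09 and 1.11 ± 0.08, adjusted p = 7.37e-04 and 5.92e-09). Sesn1, a stress-induced sestrin, averaged 74.0, 84.4 and 115.6 CPM (-0.64 ± 0.05 and -0.45 ± 0.05, adjusted p = 3.39e-08 and 9.95e-07).

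Selenoprotein synthesis bears on the glutathione peroxidases and Txnrd1. Of 9 genes that make, insert or break down selenocysteine, none were higher and 6 lower in Nfya over GFP (median -0.13). In Nfe2l1 over GFP 3 were higher and 1 lower (median 0.02). Among these 3 was Scly, the lyase that breaks selenocysteine down (0.53 ± 0.11, adjusted p = 6.13e-04). At an unadjusted p below 0.05 again 0 were higher in Nfya over GFP. DESeq2 called 0 higher and 1 lower there, and 4 were lower in the 7 libraries of like depth. The Nfe2l1 counts were 3 and 1 in both of these. Sephs2, the selenophosphate synthetase, averaged 71.2 CPM in Nfya-labelled, 102.3 in Nfe2l1-labelled and 78.5 in GFP libraries, and Nfya over Nfe2l1 gave -0.52 ± 0.04 (adjusted p = 2.27e-08). Sepsecs, which completes selenocysteine on its tRNA, averaged 55.7, 82.9 and 63.7 CPM, with 0.38 ± 0.05 in Nfe2l1 over GFP (adjusted p = 2.86e-06). Its Nfya value, -0.20 ± 0.05 (adjusted p = 0.00301), did not pass with DESeq2 (adjusted p = 0.0922). Secisbp2l averaged 281.6 CPM in Nfya-labelled and 317.3 in GFP libraries (-0.17 ± 0.03, adjusted p = 2.55e-04).

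Of 15 other selenoprotein genes 11 were tested, and 3 were higher and 1 lower with each factor (medians 0.04 and 0.03). The lower gene was Selenom with Nfya, a call lost in 4 of 23 alternatives, and Selenoi with Nfe2l1. Selenop, the selenium carrier secreted into plasma, averaged 45.6 CPM in Nfya-labelled, 38.8 in Nfe2l1-labelled and 20.7 in GFP libraries (1.14 ± 0.06 and 0.91 ± 0.06, adjusted p = 2.77e-10 and 4.10e-09). Sod3 and Selenop stood beside the rise in fibroblast and endothelial marker sums given above, whose part was not tested. Of 12 genes whose products make superoxide or hydrogen peroxide, 6 were higher and 2 lower in Nfya over GFP, and 5 higher and 2 lower in Nfe2l1 over GFP (medians 0.20 and 0.03). Nox4, an NADPH oxidase that releases hydrogen peroxide, averaged 16.1, 12.9 and 5.60 CPM (1.51 ± 0.18 and 1.19 ± 0.19, adjusted p = 4.43e-06 and 5.54e-05). Xdh, xanthine dehydrogenase, averaged 40.2, 68.1 and 30.5 CPM and gave 1.15 ± 0.07 in Nfe2l1 over GFP (adjusted p = 1.57e-09). Duox1, at a low level, averaged 6.90, 3.57 and 1.63 CPM (2.07 ± 0.27 and 1.10 ± 0.31, adjusted p = 1.03e-05 and 0.00589). Among the lower genes, Ero1a averaged 115.7, 94.7 and 117.6 CPM and gave -0.31 ± 0.04 in Nfe2l1 over GFP (adjusted p = 1.46e-06).

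The genes with the profile most like that of a member were sought by the root mean square difference of log2 CPM over the 9 libraries. A small constant was added to each CPM before the log, and each gene was centred on its own mean. The 11940 genes compared had a mean of at least 5 CPM. The constant shrinks differences at low CPM, so the spread of Gpx2 and its nearest genes depend on it. Nearest to Gpx2 were Itgax (0.360), AABR07026032.3 (0.377) and Nmb (0.438), beside a spread of 1.87 for Gpx2 itself. Itgax averaged 3.23 CPM in Nfya-labelled, 69.9 in Nfe2l1-labelled and 4.46 in GFP libraries, and Nmb 0.605, 13.8 and 0.757 CPM. Nearest to Txnrd1 were Resf1 (0.0236), Oga (0.0278) and Pir (0.0324), beside a spread of 0.166. Nearest to Gpx3 were Pum2 (0.0214), Mea1 (0.0216) and Gpbp1 (0.0234), beside a spread of 0.0942.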

How the data were processed

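Gene counts, RPKM values and edgeR comparisons were deposited by the authors for 9 mRNA libraries. The count table holds, per the file headers, whole-number counts per gene symbol, deposited as not normalized. The RPKM table (per length and per library size) and its gene length column were deposited by the authors and served to compare levels between genes. The authors' deposited edgeR tables give log2 fold changes and log2 CPM, a likelihood ratio score, p-values and adjusted p-values. The submitters' processing notes list the builds rn6, mm10 and GRCm38 besides edgeR 3.20.5, FastQC 0.11.4 and featureCounts 1.6.0. Aligner and strand setting: not given in the sources used here. Reads shared with near-identical copies could not be followed: RefSeq lists 8 for Prdx1, 4 for Gpx4, 3 for Prdx6, 2 for Gpx2 and 1 for Txn1, none of them in the count table.

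The counts were tested with edgeR 4.0.16 (R 4.3.3), in which filterByExpr kept 14151 genes, with 99.8% of counts. After TMM scaling, 1 quasi-likelihood fit of all 9 libraries, with group as its term, gave all 3 comparisons, and p-values were adjusted by Benjamini-Hochberg over all genes tested. A gene was called at an adjusted p below 0.05. The SE was taken from the log2 fold change and the F value of its test. It falls below counting error for Gpx2, whose exact intervals are therefore given, and for Gpx1 and Txn1. It does so too for several related genes, among them Glrx, Selenop, Txnrd2, Prdx4 and Gpx8. For such genes the ± values are too small and need not match the p-values printed beside them. On simulated counts for Nfya against GFP (13956 genes), 28 of 49 genes changed by 1.25-fold and 47 of 50 changed by 2-fold were called. There, 12 unchanged genes were called too. Far fewer genes were changed than were called in the data, and simulated counts could not vary less than counting error. These rates therefore need not carry over to the data. The members and lists were chosen with earlier results of these data known. Genes named from a list are among its up to 3 called genes with the smallest p in a comparison, and not all of these are named. Prdx3 and Txn2 are named as not passing. Alternatives used limma 3.58.1 on log2(RPKM + 1) and log2(RPKM + 0.1), DESeq2 1.42.0, other scaling and filters, and leaving out each library. Another set the counts per base against an assumed ceiling of 1.6, a value taken over from an earlier analysis of these data. The 7 libraries of like depth, without the shallowest and the deepest, were chosen after seeing the data.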

Additional observations from a re-analysis of the deposited data

How the results depend on the processing

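No member result that was called, with the main settings or in the alternative, changed direction under any of the 23 alternatives. Values not called did so in Nfya over Nfe2l1, where Prdx2 ran from -0.006 to 0.086 and Prdx6 from -0.037 to 0.046. Of the 24 member results, 14 kept their side of the threshold in all alternatives. In Nfe2l1 over GFP the genes called higher among the 8, 2 in the analysis reported, numbered 1 with DESeq2, with only the 6 libraries compared, with limma on RPKM values in all 3 forms and at a threshold of 0.01, and 1 to 2 when a library was left out. Genes called lower there, 3 in the analysis reported, numbered 1 in the 7 libraries of like depth and 1 to 4 when a library was left out. In Nfya over Nfe2l1 1 gene was called higher, against none, with upper-quartile scaling, library totals only, a mean of at least 5 CPM, all 3 limma forms and the inverted ceiling, and 0 to 1 when a library was left out; that gene was Gpx1. Over all genes, DESeq2 called 5096, 6265 and 4829 genes in the 3 comparisons, against 7386, 8297 and 7158 with edgeR. Leaving out a library gave 6615 to 7486, 7692 to 8327 and 6404 to 7360.

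With a replicate block no member's call changed; Txnrd1 gave -0.39 in Nfya over GFP (adjusted p = 1.30e-05), -0.21 in Nfe2l1 over GFP (0.00118) and -0.17 in Nfya over Nfe2l1 (0.00661). Deviations of same-numbered libraries correlated between -0.07 and 0.05, so the numbers were not used as pairs. Depth limits Gpx4 and also Gpx2 in Nfya over GFP, which had no value with only the 6 libraries compared, where 3 genes were lower. Of 62 results for related genes, 53 kept their call in all alternatives.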
